A study of Mus musculus with 6 samples.

Results

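The Slc27 genes encode the fatty acid transport proteins (FATPs), a family of 6 solute carriers named Slc27a1 to Slc27a6. The 6 genes were chosen by name, with the level of Slc27a4 in this comparison already known, and all 6 were found among the 55357 genes of the deposited count tables and among the 21876 genes tested. Because they were selected on this contrast, their levels and fold changes are given as a description, with no test.

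FATPs sit in the plasma membrane and in internal membranes, mainly the endoplasmic reticulum, and they promote the uptake of long-chain and very long-chain fatty acids. The proteins carry acyl-CoA synthetase activity, which joins a fatty acid to coenzyme A and thereby holds it inside the cell for oxidation, storage or the building of membrane lipids. Brain cells depend on such uptake for fatty acids that they do not make, and Slc27a1 and Slc27a4 are the members best known in neural tissue and in the vessels of the brain.

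RNA was measured in primary cultures of cortical and hippocampal neurons from wild type C57BL/6N mouse embryos at E18. Both groups were transduced with lentivirus at DIV4 (day in vitro 4) and collected at DIV14. The 3 shCtrl libraries came from cultures given a scrambled short hairpin RNA, and the 3 shPla2g4e libraries from cultures given the hairpin sh2 against Pla2g4e, a calcium-dependent N-acyltransferase that makes N-acyl-phosphatidylethanolamines. The shPla2g4e virus was used at the smallest dose that gave the intended partial loss of the Pla2g4e transcript in a titration, so the model is a partial knockdown with a single hairpin, and the control virus was given in the same amount. The labels number the libraries 1 to 3 in each group and do not say whether these were separate cultures, so the spread between replicates may be partly technical.

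The hairpin and the stretches of Slc27a4 and Slc27a3 mRNA that match its seed are shown because the number of such matches is one of the sequence features in which Slc27a4 differed from the other members, beside a longer 3′ UTR and a longer transcript. A short hairpin RNA is cut in the cell to a guide strand that pairs with its target mRNA, and bases 2 to 8 of the guide form the seed, whose pairing alone can lower an mRNA in the manner of a microRNA. The capitals mark the seed in the guide and the bases GTGGCCA that pair with it in the target and in the mRNAs, all written 5′ to 3′.
sh2 guide: tTGGCCACcaccatcttcc
sh2 target in Pla2g4e: ggaagatggtgGTGGCCAa
Slc27a4 site 1: actccagtagtGTGGCCAacttcctgcagg
Slc27a4 site 2: caggaagctaaGTGGCCAgagactatagtg
Slc27a4 site 3: cagagactataGTGGCCAgtcatcccatgt
Slc27a4 site 4: gaggacagcatGTGGCCActgggcacctgt
Slc27a3 site 1: agggagagaatGTGGCCAcaactgaagtgg
Site 1 of Slc27a4 lay in the coding sequence, in exon 3 of 13 (chr2:29805783-29805812, plus strand, GRCm38), and was followed by an A. Sites 2, 3 and 4 lay in the 3′ UTR, in exon 13, beginning 383, 399 and 495 bases after the stop codon (chr2:29816105-29816134, chr2:29816121-29816150 and chr2:29816217-29816246), so that the windows shown for sites 2 and 3 overlap. The Slc27a3 site lay in the coding sequence, in exon 8 of 10 (chr3:90386543-90386572, minus strand, GRCm38). Positions of the sites are those of GENCODE vM21, while gene positions given elsewhere are those of the count tables (GRCm39).

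The libraries held between 17054717 and 23570180 counted reads. Levels are given as CPM, read counts scaled to a common library size with TMM factors, a scaling that corrects the library totals for a few abundant genes. Pla2g4e, the targeted gene, stood at 38.0, 35.1 and 35.4 CPM in shCtrl and at 21.8, 14.1 and 18.7 CPM in shPla2g4e, a log2 fold change of −0.99 (SE 0.13, edgeR quasi-likelihood test, Benjamini-Hochberg adjusted p = 0.000124, and between 3.75e-15 and 0.00108 over the alternatives). Its groups did not overlap, and 50.5% of the shCtrl level was left. The virus dose had been set by the loss of this transcript, so a fall of Pla2g4e follows from the design. Of the 21876 genes tested, 876 fell and 543 rose at an adjusted p of 0.01, which is 4.0% and 2.48%. The counts were lower without shCtrl replicate 1 (543 falls), shCtrl replicate 2 (449 falls, 246 rises), shPla2g4e replicate 1 (548 and 306) or shPla2g4e replicate 2 (570 and 361). The libraries were also compared in pairs by replicate number, since same-numbered libraries deviated together. With that replicate block 1973 genes (9.02%) fell and 1422 (6.50%) rose. Scaled by library size alone, 43.3% of the calls were falls, against 61.7% with TMM and 53.2% with upper-quartile scaling.

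Slc27a4 (ENSMUSG00000059316.3, chromosome 2, 29692646 to 29707534, plus strand) encodes FATP4, a long-chain and very long-chain acyl-CoA synthetase best known from skin, gut and brain. Its CPM was 130.0, 126.8 and 116.3 in the shCtrl libraries and 32.5, 33.4 and 34.6 in the shPla2g4e libraries. Every shPla2g4e library thus lay far below every shCtrl library, and the 3 shPla2g4e values were closer to each other than the 3 shCtrl values. The means were 124.3 ± 7.16 and 33.5 ± 1.06 CPM (SD, n = 3), a 3.72-fold lower level with 26.9% left and a log2 fold change of −1.89 (SE 0.083). Leaving out any 1 library moved that log2 fold change only between −1.94 and −1.86. Ranked among the 10908 genes whose log2 CPM averaged 3 or more, it was the lowest. In RNA from whole cultures, fewer cells of a type and less RNA per cell cannot be told apart.

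Slc27a1 (ENSMUSG00000031808.8, chromosome 8, 72021526 to 72039946, plus strand) encodes FATP1, an insulin-responsive transporter of muscle and fat that is also made in neural cells and brain vessels. Its CPM was 110.8, 122.0 and 124.5 in shCtrl and 110.2, 108.0 and 126.7 in shPla2g4e. The groups overlapped, with the highest and the lowest value of all 6 libraries both in shPla2g4e. The means were 119.1 ± 7.33 and 114.9 ± 10.2 CPM (SD, n = 3), a log2 fold change of −0.05 (SE 0.086) that ranged from −0.13 to −0.0094 when 1 library was left out. Within a library, where scaling has no part, the ratio of Slc27a4 to Slc27a1 CPM was 1.17, 1.04 and 0.934 in shCtrl and 0.295, 0.309 and 0.273 in shPla2g4e. The ratio in every shPla2g4e library was below that in every shCtrl library, with means of 0.292 ± 0.0183 and 1.05 ± 0.120.

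Slc27a3 (ENSMUSG00000027932.15, chromosome 3, 90292546 to 90297245, minus strand) encodes FATP3, which acts mainly as an acyl-CoA synthetase. Its CPM was 6.79, 8.20 and 6.22 in shCtrl and 8.11, 9.80 and 6.40 in shPla2g4e. The groups overlapped, and in each replicate number the shPla2g4e library was the higher of the pair. The means were 7.07 ± 1.02 and 8.11 ± 1.70 CPM (SD, n = 3), with a log2 fold change of 0.20 (SE 0.18) that ran from 0.05 to 0.34 when 1 library was left out.

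Slc27a2 (ENSMUSG00000027359.17, chromosome 2, 126394327 to 126430163, plus strand) encodes FATP2, the very long-chain acyl-CoA synthetase of liver and kidney. It was counted with 38, 17 and 36 reads in shCtrl and with 38, 31 and 28 reads in shPla2g4e. As CPM these were 1.84, 0.856 and 1.6 against 1.59, 1.43 and 1.6, so the groups overlapped and shCtrl replicate 2 was the lowest. The log2 fold change was 0.10 (SE 0.35), and it ran from −0.16 to 0.32 when 1 library was left out.

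Slc27a5 and Slc27a6 were close to the limit of counting. Slc27a5 (ENSMUSG00000030382.16, chromosome 7, 12722273 to 12732119, minus strand) encodes FATP5, the bile acyl-CoA synthetase of liver, and it had 2, 3 and 10 reads in shCtrl and 0, 18 and 8 reads in shPla2g4e. Its library with 0 reads allows a level of up to 0.125 CPM, the worth of 3 reads, which covers counting error only. The means were 0.231 ± 0.187 and 0.430 ± 0.417 CPM, the groups overlapped, and the log2 fold change of 0.84 (SE 0.99) went from −0.11 to 1.73 when 1 library was left out. Slc27a6 (ENSMUSG00000024600.9, chromosome 18), which encodes FATP6, the form known from heart, had 4, 6 and 2 reads in shCtrl and 16, 6 and 6 reads in shPla2g4e. Its means were 0.195 ± 0.107 and 0.430 ± 0.210 CPM with overlapping groups and a log2 fold change of 1.15 (SE 0.78), which went from 0.66 to 1.59 when 1 library was left out. At this depth the values of Slc27a5 and Slc27a6 were imprecise, and whether they differ between the groups was not tested.

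Thus 1 of the 6 members had groups that did not overlap, in the lower direction, and none in the higher direction. Over all genes tested, 14.6% had every shPla2g4e library below every shCtrl library, and 15.5% had every one above. Since the members were chosen with this contrast known, nothing is read from that count. The median log2 fold change of the 6 members was 0.15, against 0.03 over all genes tested, and 3 of the 4 members above 0 had a mean under 2 CPM.

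**Figure D1:**
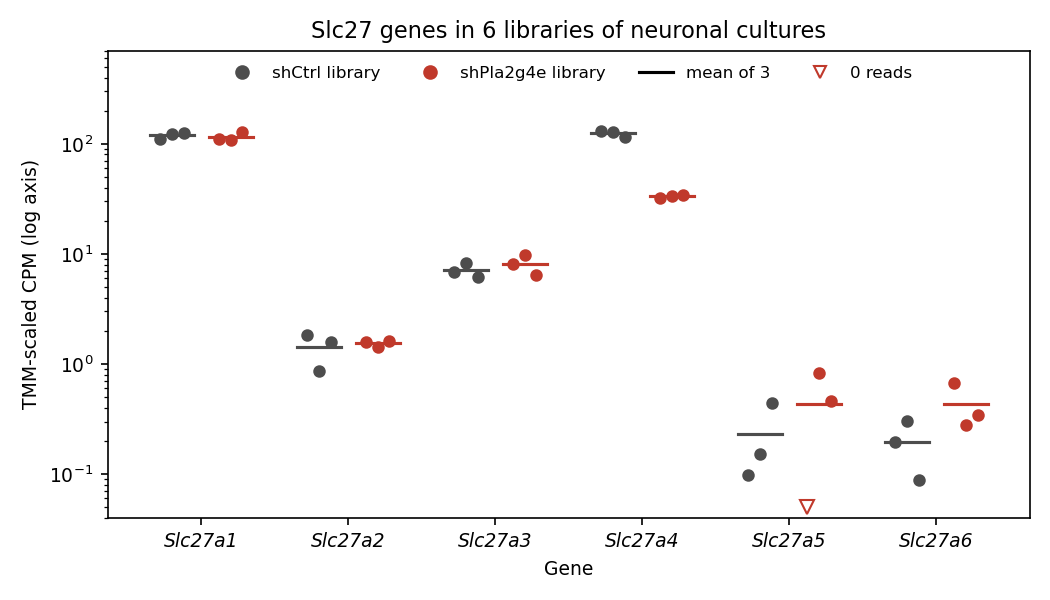
TMM-scaled CPM (log axis) of the 6 Slc27 genes, with 1 point for each of the 3 shCtrl (grey) and 3 shPla2g4e (red) libraries, a line at each mean, and an open triangle for a library with 0 reads. The groups are apart for Slc27a4 (124.3 against 33.5 CPM) and overlap for the other 5 genes.

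Levels of different genes were compared per length, as CPM per kb of the exon length in the count tables. In shCtrl the order ran from Slc27a4 with 28.2 ± 1.62 CPM per kb (SD, n = 3) to Slc27a1 with 20.4 ± 1.26, Slc27a3 with 2.75 ± 0.398, Slc27a2 with 0.382 ± 0.137, Slc27a5 with 0.0946 ± 0.0766 and Slc27a6 with 0.0784 ± 0.0429. All neighbours in that order had libraries that did not overlap, apart from Slc27a5 and Slc27a6. In shPla2g4e Slc27a1 came first with 19.7 ± 1.75 CPM per kb, followed by Slc27a4 with 7.59 ± 0.239 and Slc27a3 with 3.15 ± 0.662, and then by Slc27a2 with 0.410 ± 0.0248. Slc27a5 and Slc27a6, at 0.176 and 0.173 CPM per kb, again overlapped, and the other neighbours did not.

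The summed level of the family was 51.7, 53.3 and 50.8 CPM per kb in the shCtrl libraries and 30.1, 30.7 and 32.8 in the shPla2g4e libraries. These sums did not overlap, with means of 51.9 ± 1.26 and 31.2 ± 1.41. Without Slc27a4 the sums were 22.2, 24.5 and 24.4 against 22.7, 23.2 and 25 CPM per kb. Those groups overlapped, and their means of 23.7 ± 1.29 and 23.6 ± 1.18 differed by less than the replicate spread. Of the family level, Slc27a4 made up 54.3% in shCtrl and 24.3% in shPla2g4e, Slc27a1 39.3% and 63.1%, and Slc27a3 5.29% and 10.2%. By the length of the coding transcript, taken up next, the shares were 39.8% and 15.3% for Slc27a4, 55.3% and 76.3% for Slc27a1 and 4.05% and 6.72% for Slc27a3.

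The order of the upper pair in shCtrl depends on the length used. The exon length of Slc27a1 in the count tables is 5835 bases, while its longest coding transcript in GENCODE vM21 has 2795 bases, and for Slc27a4 the lengths are 4412 and 4054 bases. Per kb of the coding transcript, a choice made after seeing the data, Slc27a1 stood above Slc27a4 in shCtrl as well, with 42.6 ± 2.62 against 30.7 ± 1.77 CPM per kb. The libraries of the 2 genes did not overlap on that scale, and in shPla2g4e the values were 41.1 ± 3.66 and 8.26 ± 0.261. Differences of 1 gene between groups are the same on either length.

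**Figure D2:**
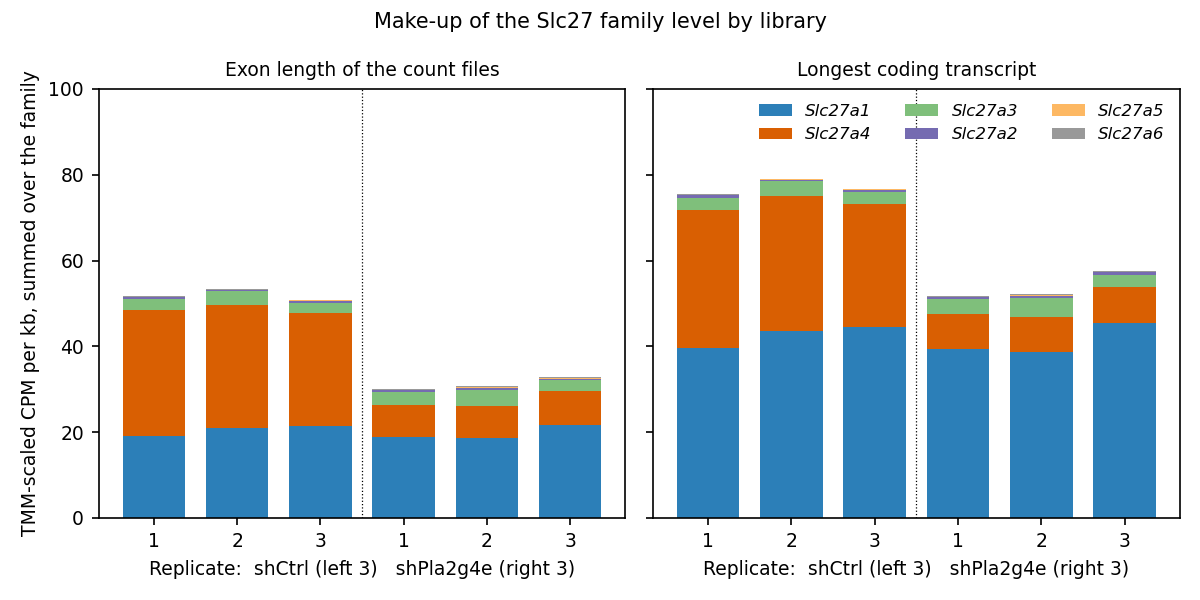
Stacked bars of TMM-scaled CPM per kb of the 6 Slc27 genes in each library, by the exon length of the count tables (left panel) and by the longest coding transcript (right panel), with the 3 shCtrl libraries left of the dotted line. The Slc27a4 segment is shorter in each shPla2g4e library, at a mean of 7.59 against 28.2 CPM per kb on the left, and the Slc27a1 segment is larger on the right than on the left.

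Markers of the cell types that such cultures can hold were summed in each library. The 12 pan-neuronal markers summed to between 6426 and 7166 CPM in shCtrl and between 6118 and 6598 CPM in shPla2g4e, with 2 markers falling and 2 rising in edgeR (3 and 3 with the replicate block). The 10 astrocyte markers summed to between 2978 and 3805 CPM and between 2051 and 3244 CPM, and 3 of them, Aqp4, Slc1a2 and Gja1, fell (7 fell and 1 rose with the block). Within replicate numbers the shPla2g4e library was lower each time in the astrocyte sum (2208 against 2978, 2051 against 3354 and 3244 against 3805 CPM), in the pan-neuronal sum (6598 against 7166, 6157 against 6788 and 6118 against 6426 CPM) and in the microglial sum (5.94 against 6.45, 3.88 against 6.69 and 8.23 against 15.7 CPM), and higher each time in the fibroblast and meningeal sum. The 11 oligodendrocyte lineage markers summed to between 585 and 663 CPM in shCtrl and between 599 and 740 CPM in shPla2g4e, and the 6 fibroblast and meningeal markers to between 136 and 148 and between 143 and 162 CPM. Microglial markers reached at most 15.7 CPM and endothelial and mural markers at most 37.6 CPM in a library, with the defining endothelial marker Cldn5 at or under 3 reads in every library. Of the 34 tested markers in these 4 lists none was called in edgeR, limma after voom or DESeq2, with 4 lower and 4 higher at an unadjusted p under 0.05, and with the block 2 fell and 3 rose. The part of cell make-up in the Slc27 levels was not tested beyond these values.

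The reads of the members were their own as far as the annotation shows. None of the 6 genes had exon bases that overlap another gene on either strand. Of the 50-base stretches of the longest coding transcript, 1.75% of those of Slc27a1 (48 of 2746) also occur in other genes, and none of those of the other 5 members did. The encoded proteins run from 619 residues for Slc27a6 to 689 residues for Slc27a5. Slc27a1 (646 residues) and Slc27a4 (643 residues) are the closest pair, with 60.5% identical residues, followed by Slc27a2 and Slc27a6 with 50.5% and Slc27a3 and Slc27a6 with 48.7%. The other pairs share between 37.8% (Slc27a4 and Slc27a5) and 45.6%.

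The sequence GTGGCCA was searched on the mRNA strand of the longest coding transcript of each gene. Slc27a4 (4054 bases, with a 3′ UTR of 1789 bases) held it 3 times in the 3′ UTR and 1 time in the coding sequence. Slc27a3 held it 1 time in the coding sequence, as did 25.3% of 15816 genes at least once, and Slc27a1, Slc27a2, Slc27a5 and Slc27a6 held it nowhere. With 6 paired bases in place of 7, Slc27a4 had 4 matches in its 3′ UTR, Slc27a1 had 1 and the other members none. The 3′ UTRs of the other members were shorter, between 118 bases (Slc27a3) and 649 bases (Slc27a1). The reverse strand of the hairpin, the sense strand, had 1 seed match in the 3′ UTR of Slc27a4, as 14.3% of genes have. Against the whole target of 19 bases, the best stretch of Slc27a4 matched at 12 positions, a score reached by 89.5% of genes, and its longest unbroken run was 8 bases, reached by 66.4%.

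At least 3 matches in the 3′ UTR, as Slc27a4 has, were found in 54 of 15656 genes (0.345%), and 13.4% had at least 1. Among the genes with a mean of at least 10 CPM, the median log2 fold change was −0.01 over 8572 genes with no match, −0.16 over 1339 genes with 1, −0.24 over 190 genes with 2 and −0.38 over 46 genes with at least 3. The share of genes with a log2 fold change below 0 was 51.9%, 73.9%, 79.5% and 87.0% in the same order. Slc27a4 was the lowest of the 46, followed by Rras2 at −1.51, and Slc27a1 with no match was inside the middle range of its class. Genes with more matches also have longer 3′ UTRs, with medians of 1204, 2405, 3375 and 4963 bases. Among genes whose 3′ UTR was within 1433 to 2235 bases, near the 1789 of Slc27a4, the median was −0.02 over 1479 genes with no match, −0.19 over 269 genes with 1 and −0.44 over 40 genes with at least 2. The lowest gene with no match and a mean of at least 10 CPM was Ldhb, at −1.85. Over all levels, log2 fold changes at least as low as that of Slc27a4 were found in 42 of 13553 genes with no match and 6 of 1803 with 1. They were found in 0 of 246 genes with 2 and in 2 of 54 with at least 3, Slc27a4 included. All of these genes apart from Slc27a4 had a mean under 10 CPM. A match is a description of the sequence, and whether the matches bear on the level of Slc27a4 was not tested.

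**Figure D3:**
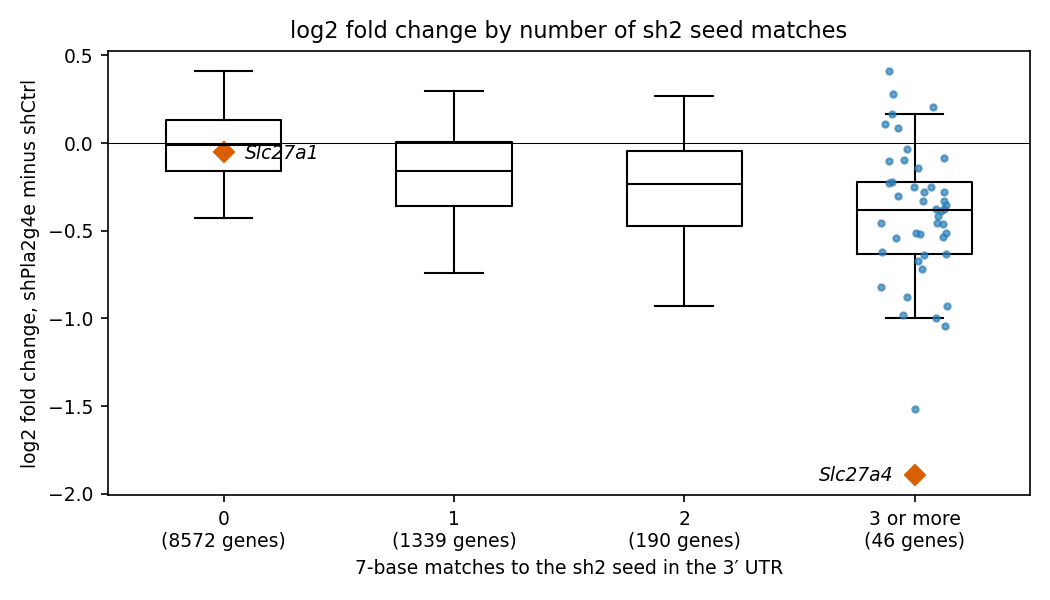
log2 fold change (shPla2g4e minus shCtrl) of genes with a mean of at least 10 CPM, by the number of 7-base matches to the sh2 seed in the 3′ UTR, as boxes of the middle range with whiskers from the 5th to the 95th percentile, blue points for the genes with 3 or more and orange diamonds for the Slc27 genes. The medians go from −0.01 to −0.38, and Slc27a4 at −1.89 is the lowest point of its class. The other 4 Slc27 genes are under 10 CPM and are not drawn.

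The 3 nearest tested genes on each side of every member were then examined, to see whether neighbours on the chromosome moved with it. None of the 36 flanking genes was called in edgeR at an adjusted p of 0.01, against 6.49% of all genes tested. So few genes leave little room for calls at that share, and nothing is read from the count. None was called in limma after voom or DESeq2, and at an unadjusted p under 0.05 3 were lower and 4 higher. Around Slc27a4, the log2 fold change of the neighbours ran from −0.15 to 0.82. The nearest genes were Coq4 (4699 bases before it, 23.3 ± 0.639 against 20.9 ± 1.97 CPM) and Urm1 (2553 bases after it, 53.8 ± 1.94 against 56.4 ± 4.31 CPM). Their log2 fold changes were −0.15 (SE 0.11) and 0.07 (SE 0.085), far from the −1.89 of Slc27a4. With the replicate block 3 of the 36 flanking genes rose, where 6.50% of all genes did. They were Mvb12a beside Slc27a1, Cercam beside Slc27a4 and Minar2 beside Slc27a6, whose log2 fold changes without the block were 0.35, 0.44 and 0.36. These 3 genes were singled out once their values were known.

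The enzymes and carriers that work next to the FATPs were followed in 6 lists written by function. Of 167 listed genes 140 were tested, and 6 fell and 0 rose in edgeR, 4.29% against 6.49% of all genes. No list gene rose in limma after voom, 1 rose in DESeq2, and 18 were higher at an unadjusted p under 0.05. The median log2 fold change of the 140 genes was −0.04, with 77 below 0 and 63 above. With the replicate block 18 fell and 9 rose, 19.3% against 15.5% of all genes. Falls and rises together, the lists thus stood below the share over all genes without the block and above it with the block. Falls alone were 4.29% against 4.0% of all genes, and 12.9% against 9.02% with the block. Rises alone were 0 against 2.48%, and 6.43% against 6.50% with the block. None of these differences was tested. In the order given below, the 6 lists had 0%, 7.69%, 4%, 5.71%, 4.76% and 0% of their genes called. With the block these shares were 12.5%, 30.8%, 8%, 28.6%, 14.3% and 9.09%. None of the 6 genes that fell in edgeR without the block was as low as Slc27a4. That follows from Slc27a4 having the lowest log2 fold change of the 10908 genes ranked.

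Among 24 genes of fatty acid uptake and intracellular carriage, none was called in edgeR, limma after voom or DESeq2, with 3 lower and 3 higher at an unadjusted p under 0.05. The most abundant were the lipoprotein receptor Lrp1 (719.0 ± 38.7 against 665.0 ± 16.3 CPM) and the acyl-CoA binding protein Dbi (285.0 ± 48 against 261.7 ± 30.7 CPM). With the block, Mfsd2a, the lysophospholipid transporter of docosahexaenoic acid, and Vldlr fell, at −0.34 and −0.22, and the lipase Lipg rose, at 0.47.

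Among 26 other acyl-CoA synthetases and thioesterases, 2 fell in edgeR and none rose in edgeR, limma after voom or DESeq2, with 2 higher at an unadjusted p under 0.05. Acot7, the main brain thioesterase, which releases fatty acids from coenzyme A, was at 209.2, 216.7 and 179.2 CPM in shCtrl and at 108.5, 107.3 and 108.3 in shPla2g4e, without overlap. Its log2 fold change was −0.90 (SE 0.085, edgeR adjusted p = 5.50e-06, and at most 0.000155 over the alternatives). Aacs, which makes acetoacetyl-CoA from ketone bodies, fell from 108.9 ± 17.0 to 78.3 ± 7.42 CPM, by 0.48 on the log2 scale (SE 0.11, edgeR adjusted p = 0.00696, between 1.97e-07 and 0.0355 over the alternatives). The call of Aacs was lost without shCtrl replicate 1 (0.0355) or 2 (0.0140), without shPla2g4e replicate 1 (0.0137) or 2 (0.0339), and in 4 other settings. With the block 6 fell, adding the long-chain synthetases Acsl5 and Acsbg1, Acss1 and Acot11, and Acsl3 and Acot13 rose, at 0.24 and 0.46.

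In the 25 genes of the carnitine shuttle and peroxisomal oxidation, 1 fell in edgeR. No gene of this list rose in edgeR, limma after voom or DESeq2, with 4 higher at an unadjusted p under 0.05. Cpt1c, the neuronal form of carnitine palmitoyltransferase, was at 118.0 ± 3.71 against 122.1 ± 5.97 CPM. With the replicate block 2 fell, among them Cpt1a, the form of that enzyme found in most tissues, at −0.37.

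Elongation, ceramide synthesis and glycerolipid acylation were covered by 35 genes, of which 2 fell and 0 rose, with 7 higher at an unadjusted p under 0.05, none rising in limma after voom and 1 in DESeq2. Both genes that fell encode dehydratases of the elongation cycle. Hacd3 fell from 203.9 ± 3.26 to 152.7 ± 4.69 CPM, by 0.42 on the log2 scale (SE 0.074, edgeR adjusted p = 0.00135, between 2.72e-07 and 0.0153 over the alternatives, lost without shCtrl replicate 2). Hacd2 fell from 40.2 ± 1.12 to 30.4 ± 1.07 CPM, by 0.40 (SE 0.088, edgeR adjusted p = 0.00628, between 0.000259 and 0.0352 over the alternatives). Its call was lost in 7 settings, 5 of which left out a library: shCtrl replicate 1 (0.0209), 2 (0.0253) or 3 (0.0221), or shPla2g4e replicate 1 (0.0352) or 2 (0.0217). With the block 5 fell, adding Elovl6, Cers4 and Gpam, and 5 rose, namely Elovl7, Dgat2 and the phosphatidate phosphatases Lpin1, Lpin2 and Lpin3, at 0.27 to 0.71.

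Of 21 nuclear regulators of lipid genes, Mlx, the partner of the glucose-responsive factor ChREBP, fell from 28.4 ± 1.64 to 16.4 ± 1.79 CPM, by 0.79 on the log2 scale (SE 0.11, edgeR adjusted p = 0.000230, at most 0.00196 over the alternatives). Srebf2, which drives cholesterol synthesis (310.9 ± 29.2 against 328.3 ± 4.81 CPM), and the coactivator Ncoa2 (119.5 ± 1.70 against 125.2 ± 9.98 CPM) were the most abundant others, and Srebf1 and Nr2f2 fell with the block, at −0.34 and −0.56. Of 11 bile acid and oxysterol enzymes, the group closest to Slc27a5 in function, none was called in edgeR, limma after voom or DESeq2, with 1 lower and 2 higher at an unadjusted p under 0.05. Cyp46a1, the neuronal cholesterol 24-hydroxylase, was at 174.9 ± 6.28 against 152.4 ± 2.74 CPM and Acot8 at 11.3 ± 1.01 against 11.9 ± 2.0 CPM, while 9 of the 11 had a mean under 10 CPM. Baat, which joins bile acids to taurine and glycine, rose with the block, from a mean of 0.208 CPM to 1.07 CPM.

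**Figure D4:**
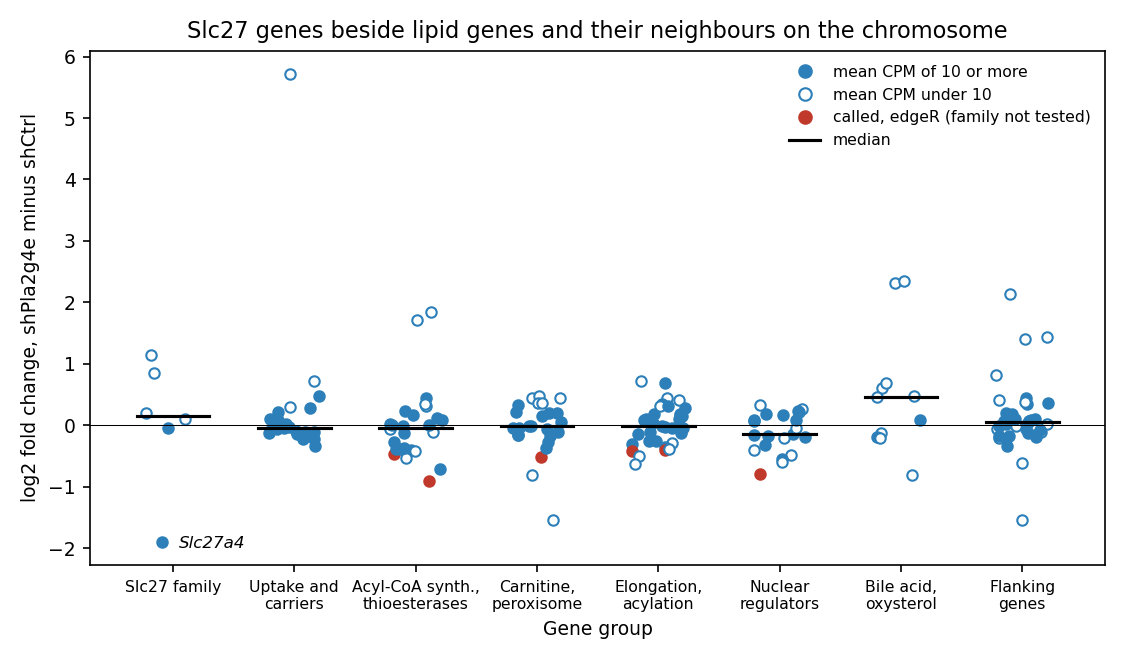
log2 fold change (shPla2g4e minus shCtrl) of the 6 Slc27 genes, the 6 lists of lipid genes and the 36 flanking genes, with filled points for genes with a mean of at least 10 CPM, open points for lower ones, red for genes called in edgeR and a line at each median. Slc27a4 at −1.89, the lowest of the 10908 genes ranked, for that reason lies below every filled point of the lists. The lowest called one is Acot7 at −0.90. The open point at the top is Fabp4, with 0 reads in all shCtrl libraries and 0, 1 and 16 in shPla2g4e.

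Solute carrier genes outside the family gave a wider frame. Of 286 tested, 20 fell and 8 rose (9.79% called, against 6.49% of all genes tested) with a median log2 fold change of 0.04. With the block 45 of the 286 (15.7%) fell and 24 (8.39%) rose, against 9.02% and 6.50% of all genes, and whether these shares differ was not tested.

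The genes whose profile over the 6 libraries was most like that of a member were found by the root mean square difference of log2 CPM, each centred on its own mean, over 10406 genes with a mean of at least 10 CPM. For Slc27a4 these were the neuronal tubulin Tubb3 (0.140), the long noncoding RNA 1700020I14Rik (0.141), the synaptic vesicle protein Sv2c (0.194), the zinc finger protein Wiz (0.195) and the small GTPase Rras2 (0.203). Their log2 fold changes ran from −1.68 (Tubb3) to −1.51 (Rras2), a direction that follows from choosing genes with the profile of Slc27a4, so that no test is given for them. With only each gene's longest coding transcript searched, the 3′ UTR of Rras2 held 3 seed matches, that of Sv2c 1 and those of Tubb3 and Wiz 0. Of all genes searched in that way, 13.4% had at least 1 match and 0.345% at least 3. When the UTRs of any annotated transcript were counted, Wiz held 2, while Rras2, Sv2c and Tubb3 kept their counts. No share over all genes was taken for that wider count. For Slc27a1 the most like genes were Cops5 (0.00831), Cyb561d1 (0.0204), Matk (0.0226), Entpd5 (0.0228) and Med12 (0.0258), with log2 fold changes between −0.07 and −0.05. These differences were smaller than those around Slc27a4, whose nearest gene was at 0.140. Slc27a4 had the lowest log2 fold change of the 10908 genes ranked, so few genes could lie near it. The other 4 members have a mean under 10 CPM, and no like genes were sought for them.

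**Figure D5:**
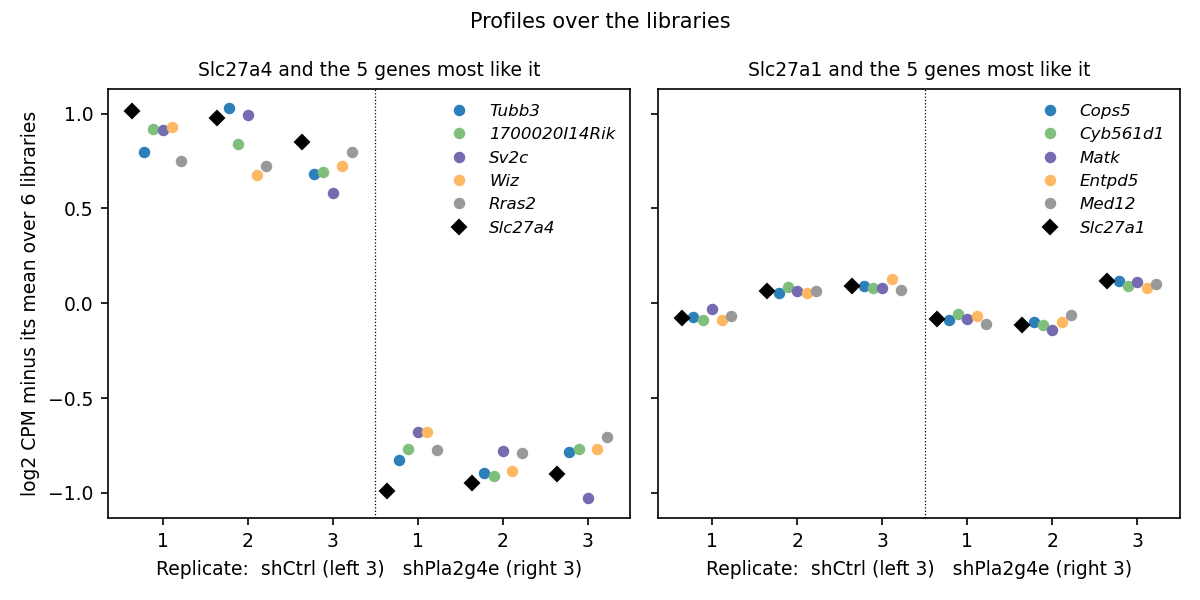
log2 CPM minus its mean over the 6 libraries for Slc27a4 (left panel) and Slc27a1 (right panel), as black diamonds, with the 5 genes most like each as coloured points, the 3 shCtrl libraries left of the dotted line. Slc27a4 and its 5 like genes are high in all shCtrl and low in all shPla2g4e libraries, while the values on the right stay near 0 in every library.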

How the data were processed

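The authors aligned the reads of the 6 polyA RNA libraries (TruSeq Stranded mRNA kit) with STAR 2.7.0d and deposited raw counts per gene from featureCounts 1.6.0, with no normalization. The submitters' processing notes and the coordinates point to GRCm39, whereas the study's methods name mm10. Counting was run without strand, as far as its recorded command shows, so reads of overlapping genes on either strand cannot be told apart. Symbols were matched for 52081 of the 55357 genes through GENCODE vM21.

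A gene was tested where any 1 library held 6 or more reads, with edgeR 4.0.16 (R 4.3.3) after TMM, the quasi-likelihood test, and Benjamini-Hochberg adjustment at 0.01. Standard errors came from the F statistic. The fit was tested on simulated data. Alternatives were limma 3.58.1 after voom, DESeq2 1.42.0, other scalings and filters, a robust fit, a replicate block and leaving out each library. Over 10908 genes, after removing the group means, same-numbered libraries had correlations of 0.392, 0.189 and 0.461 and others of −0.393 to 0.108, so the numbers, which the labels give, were taken as pairs.

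The members, lists and tests were chosen with earlier results of these data known. Named were the members, Pla2g4e, up to 3 called genes per list, the 2 most abundant uncalled genes where fewer than 2 were called, and the 5 genes most like each member over 10 CPM. Genes called only with the block, the genes beside the seed counts, the marker genes, Fabp4 and the nearest neighbours of Slc27a4 were added with their values in view. A few genes that this rule names are not reported here. Hairpin strands came from the study's reagent list, and mRNA and protein sequences from GENCODE vM21. The chi-square statistic per gene was 6.03 to 15.4 within groups and 19.1 to 38.0 between them, so no library was a copy of another.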

Additional observations from a re-analysis of the deposited data

How the results depend on the processing

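The log2 fold change of Slc27a4 stayed between −1.94 and −1.86 without any 1 library, and moved by more than the replicate spread only under library size alone, to −1.82. With the coding transcript length, an alternative chosen after seeing the data, the share of the family level was 55.3% for Slc27a1, 39.8% for Slc27a4 and 4.05% for Slc27a3 in shCtrl, and 76.3%, 15.3% and 6.72% in shPla2g4e, where Slc27a2 had 0.982%, since the length of Slc27a1 is then shorter. A 6-base seed match gave Slc27a1 a count of 1. With the replicate block (paired design) 1973 genes fell and 1422 rose, and the lists gave 2 falls and 1 rise for uptake, 6 and 2 for synthetases, 2 falls for carnitine and peroxisome, 5 and 5 for elongation, 3 falls for regulators, and 1 rise for bile acid enzymes, with 3 rises among flanking genes. It ended no call among the list genes named in edgeR without it. No filter gave 1360 falls and 989 rises over more genes, with 1 rise in uptake, 6 falls and 1 rise in synthetases, 2 falls in carnitine, 4 falls and 3 rises in elongation, 3 falls in regulators, 1 rise in bile acid enzymes and 2 rises in flanking genes. At an adjusted p of 0.05, which by construction calls more, there were 1599 falls and 1214 rises, with 1 rise in uptake, 4 and 1 in synthetases, 2 falls in carnitine, 5 and 4 in elongation, 2 falls in regulators, 1 rise in bile acid enzymes, and 1 fall and 2 rises in flanking genes. Library size alone gave 1 fall in synthetases, 0 in carnitine, and 1 fall and 3 rises in elongation, with a median log2 fold change of 0.10 over all genes against 0.03. Upper-quartile scaling gave 1 fall each in synthetases and elongation, and both stricter filters 1 fall in synthetases. DESeq2 gave 2 falls in carnitine and 1 rise in elongation, and the robust fit 2 falls in carnitine and 1 rise in bile acid enzymes. Apart from the changes that a construction explains, the cause was not tested.

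Without 1 library, falls over all genes ran from 449 to 932 and rises from 246 to 681. In the lists the ranges were 0 to 1 rises for uptake, 1 to 6 falls and 0 to 1 rises for synthetases, 0 to 2 falls for carnitine, 0 to 3 falls and 0 to 1 rises for elongation, 1 to 3 falls for regulators, 0 to 1 rises for bile acid enzymes and 0 to 1 rises for flanking genes. The highest list counts of falls came without shPla2g4e replicate 3. In all, 84 of the recomputed values moved and 352 did not. Depth limits Slc27a5 and Slc27a6, at 0 to 18 reads a library, and Slc27a2, at 17 to 38 reads.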
